A study of Mus musculus with 22 samples.

Results

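The 10 immediate early genes *Fos*, *Fosb*, *Jun*, *Junb*, *Jund*, *Egr1*, *Ier2*, *Ier3*, *Atf3* and *Dusp1* were followed through GATA1-induced differentiation of G1ER (G1E-ER4) cells. They were chosen by name, out of 21853 protein-coding genes of the GENCODE M21 annotation (mm10), and each was examined across its gene body and 20 kb on either side. G1ER cells are 1 clone of the G1E line, mouse erythroid progenitors that lack *Gata1*. All samples carry the same constitutively expressed transgene, a GATA1-ER fusion that estradiol activates. Undifferentiated cells (0 h) and cells after 2, 6, 12 or 24 h of β-estradiol grew in a medium with serum, stem cell factor and erythropoietin, which are themselves signals that can induce such genes. H3K4me3, a histone mark of promoters, and H3K27ac, a mark of active promoters and enhancers, were each mapped by ChIP-seq in 2 replicates per time point, which gave 10 peak lists per mark, and CTCF, a DNA-binding protein of loop anchors, was mapped once at 0 h and once at 24 h.

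Immediate early genes are induced by growth factors, cytokines and stress within minutes and without new protein synthesis. Serum response factor with its ETS-family partners and the CREB and ATF factors receive the signal from kinase cascades at their promoters. FOS and JUN family proteins pair to form the AP-1 transcription factor, EGR1 is a zinc-finger factor, ATF3 is a stress-induced member of the ATF family, and DUSP1 is a phosphatase that turns off MAP kinases. Genes of this class are short, which favors rapid transcription. The members had a median length of 3.81 kb, against 17.4 kb over all protein-coding genes, and 8 of the 10 were shorter than 10 kb.

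The promoter sequences are shown first, because several hold the motif of the CREB and ATF factors and because the peaks described below lie on these bases. The motif TGACG, searched on both strands in the 200 bases before the start, was found in 5 of the 8 members with an entry in the RefSeq promoter table (GRCm38.p6), against 15.7% of all 32851 promoters. The capitals mark it, or its reverse complement CGTCA. *Dusp1* alone held the full palindrome TGACGTCA, found in 1.47% of promoters. Each promoter is written 5′ to 3′ on the strand of its gene, and *Fosb* and *Dusp1* only up to their annotated start.
Fos (chr12:85473690-85473889, plus strand): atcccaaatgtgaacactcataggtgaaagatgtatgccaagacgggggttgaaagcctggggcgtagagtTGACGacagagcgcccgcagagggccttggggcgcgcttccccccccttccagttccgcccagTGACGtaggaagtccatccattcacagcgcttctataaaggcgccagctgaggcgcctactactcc
Fosb (chr7:19310052-19310245, minus strand): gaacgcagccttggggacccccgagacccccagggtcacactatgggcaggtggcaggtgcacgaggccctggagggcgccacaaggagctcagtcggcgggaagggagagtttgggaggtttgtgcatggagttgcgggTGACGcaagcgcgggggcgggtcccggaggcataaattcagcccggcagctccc
Junb (chr8:84978749-84978948, minus strand): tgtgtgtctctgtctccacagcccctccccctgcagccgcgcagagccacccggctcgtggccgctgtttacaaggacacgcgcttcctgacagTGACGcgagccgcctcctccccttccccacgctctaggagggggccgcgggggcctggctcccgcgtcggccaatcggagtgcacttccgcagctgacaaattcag
Atf3 (chr1:191183334-191183533, minus strand): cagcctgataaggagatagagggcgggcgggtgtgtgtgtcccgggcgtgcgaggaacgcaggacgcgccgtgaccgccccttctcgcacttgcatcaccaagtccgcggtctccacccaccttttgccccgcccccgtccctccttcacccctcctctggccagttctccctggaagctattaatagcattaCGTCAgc
Dusp1 (chr17:26508520-26508672, minus strand): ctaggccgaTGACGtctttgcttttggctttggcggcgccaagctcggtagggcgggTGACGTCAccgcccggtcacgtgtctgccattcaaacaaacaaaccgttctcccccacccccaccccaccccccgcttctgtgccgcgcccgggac

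The promoters of *Jun*, *Jund* and *Ier3* held no TGACG in this window. The GC box GGGCGG was in 6 of the 8 windows and in 31.0% of all promoters, and the GATA motif (GATA with an adenine or thymine before it and a purine after it) in 2, *Jun* and *Atf3*, and in 21.4%. The CArG box, the serum response factor motif, was in none of the 8 windows and in 1.18% of all promoters, and the AP-1 motif TGANTCA was in none of the 8 and in 5.48% of all. The *Fos* sequence also held TATAAA, as did 9.96% of promoters. These are matches of letters and not measured binding sites. Bases outside these windows were not searched here, nor were *Egr1* and *Ier2*, so a missing match does not show that a gene lacks a site. H3K4me3 peaks covered all printed bases of each of these 5 promoters in all 10 lists. H3K27ac peaks covered them in 10 lists for *Fos* and *Dusp1*, in 8 for *Fosb*, in 5 for *Atf3* and in none for *Junb*.

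The lists held 12925 to 14452 H3K4me3 peaks, 17247 to 18333 H3K27ac peaks, and 33193 and 41473 CTCF peaks. Reads per peak are not among the deposited columns, so the depth is unknown, and a missing peak shows that none passed the caller's threshold, not that the mark was absent. Of 8 erythroid marker genes, 4 (*Klf1*, *Epor*, *Tfrc* and *Lyl1*) had H3K4me3 within 1 kb of the transcription start site (TSS) in all 10 lists and 3 more in 8 or 9, while *Tal1* had none at the TSS used. None of 12 markers of T cells, B cells, liver or fibroblasts had such a peak in any list. Lengths are given in bp as covered by peaks, for the first and then the second replicate. The smallest two-sided p of an exact permutation test of 2 lists against 2 is 0.333, so differences were tested with limma across all windows or regions, with Benjamini-Hochberg adjustment, and passed at an adjusted p under 0.05.

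The first question was whether the promoters carried the active marks before and after GATA1 activation. With the exception of *Atf3*, every member had an H3K4me3 peak within 1 kb of its TSS in all 10 lists, including both lists at 0 h. *Atf3* lacked it because the TSS used, that of its principal annotated transcript, lies at chr1:191218039. Its peaks sat downstream of that, 33.8 to 35.8 kb away for H3K27ac, at the start of its shorter transcripts, in all 10 lists of both marks. H3K27ac divided the other 9 genes. It was within 1 kb of the TSS in all 10 lists at *Fos*, *Fosb*, *Jun*, *Jund*, *Ier3* and *Dusp1*, in 4 lists at *Ier2*, in 1 list at *Egr1* and in no list at *Junb*. Over the 9400 genes with H3K4me3 at the TSS in all lists, 87.8% had H3K27ac in all 10, 9.17% in 1 to 9 and 3.05% in none.

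**Figure D1:**
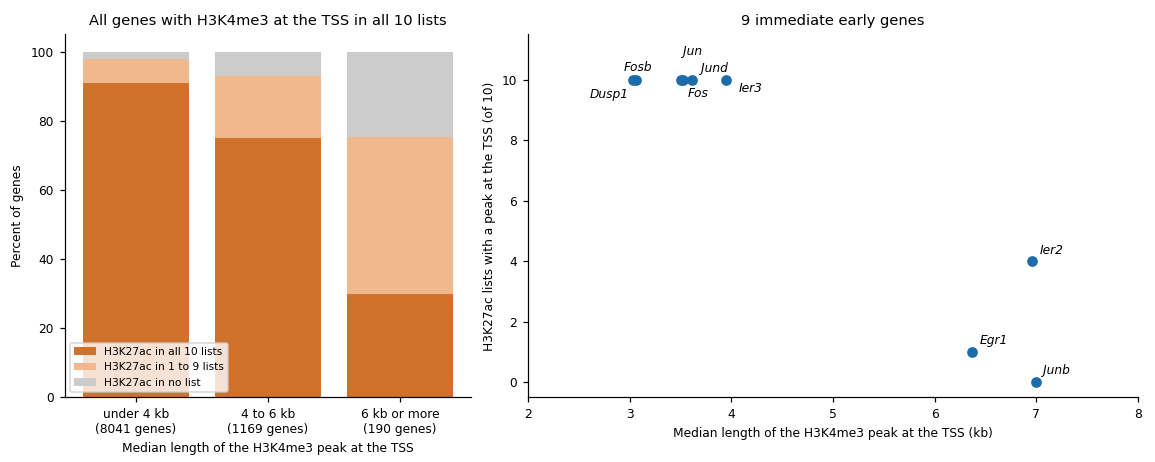
Left, percent of genes with H3K27ac within 1 kb of the TSS in all 10, 1 to 9 or no lists, by median length of the H3K4me3 peak there. Right, each point is 1 of 9 immediate early genes, with the median length of its H3K4me3 TSS peak in kb against the number of H3K27ac lists with a peak at the TSS. *Junb*, *Ier2* and *Egr1* have H3K4me3 peaks over 6 kb and 0, 4 and 1 H3K27ac lists, and the other 6 have 10.

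The 3 genes with sparse H3K27ac were those with the longest H3K4me3 peaks. The median length at the TSS was 6995 bp for *Junb*, 6954.5 bp for *Ier2* and 6364 bp for *Egr1*, in the 99.3, 99.3 and 98.7 percentiles of such genes, whose median was 2691 bp. *Ier3*, next in order, had 3951 bp, and *Fosb* and *Dusp1* had the shortest at 3059 and 3032.5 bp. These long domains had low peak scores, a significance score of the peak caller. It was 262 to 438 over the lists at *Junb*, 414 to 539 at *Ier2* and 319 to 762 at *Egr1*. Of the other members with a TSS peak, *Fos* had the lowest scores, 703 to 1028, which overlapped those of *Egr1*. *Jund* had the highest, 1285 to 1962. The same held over the genome as a description. Of 190 genes with an H3K4me3 TSS peak of 6 kb or more, 30.0% had H3K27ac in all 10 lists, 45.3% in 1 to 9 and 24.7% in none, whereas under 4 kb (8041 genes) 91.0% had it in all 10. The median score percentile of the H3K4me3 peak was 35.5 in the first class and 71.9 in the second. The part of peak length and score in the H3K27ac difference was not tested.

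*Junb*, which encodes the JUN family member JUNB, lies at chr8:84974484-84978718. Its H3K4me3 peak spanned 7069 and 6932 bp at 0 h, 7328 and 6755 bp after 2 h, 6840 and 7114 bp after 6 h, 7447 and 6865 bp after 12 h, and 6874 and 7058 bp after 24 h. The lists at 2, 6 and 12 h lay on both sides of those at 0 h, and those at 24 h overlapped them. H3K4me3 also covered the starts of *Prdx2* and *Rnaseh2a* downstream and of *Hook2* upstream in all 10 lists, so that its window held the longest H3K4me3 of the members, 16821 to 19170 bp. The H3K27ac of this window, 2489 to 3787 bp, lay only at *Hook2*, upstream of the *Junb* domain and apart from it.

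*Ier2*, a small nuclear protein gene at chr8:84661331-84662852, had H3K27ac peaks whose place differed between time points. No peak touched its window at 0 h in either list. At the edge of the window, 21.5 to 24.65 kb downstream of the TSS, a region at the *Cacna1a* start had H3K27ac in all 10 lists. It had 2898 and 2409 bp at 0 h. At 2 h both lists had a peak of 3554 and 3531 bp downstream of the gene, between 4233 and 7801 bp from the TSS, and no peak at the TSS. At 6 h, 1 list had this downstream peak (3690 bp) and the other had a peak of 7720 bp over the whole gene. At 12 h the first list had the peak over the gene (7456 bp) and the second had neither this peak nor the downstream one. At 24 h both lists had it, with 7688 and 7589 bp, from -3669 to 4022 bp relative to the TSS. No list held both peaks. The H3K4me3 peak at the same place was present throughout, at 6858 to 7300 bp.

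By presence in both lists of one time and neither of the other, the downstream region (chr8:84654852-84658619) was gained at 2 h and the TSS region (chr8:84658820-84666541) at 24 h. Of all H3K27ac regions, 1.56% were gained at 2 h and 3.43% at 24 h. Against 2 h, the downstream region was lost at 12 h and at 24 h, as were 1.42% and 3.17% of all regions. The 2 regions are neighbors, the first ending at 84658619 and the second starting at 84658820. Merged within 500 bp they would count as 1, with a peak in both lists at 2 h and 24 h and in 1 at 12 h. These losses against 2 h would then not be called. Scores of the *Ier2* H3K27ac peaks ran from 57.7 to 117, in the 5.25 to 28.0 percentiles of their lists. None of these peaks reached the median score of all H3K27ac peaks, 242. In the limma window test the H3K27ac of *Ier2* did not pass at 2 h (adjusted p = 0.437) or at 24 h (adjusted p = 0.0933). It did pass at 2 h and 24 h without the first list at 12 h (adjusted p = 0.00952 and 0.00194) and without the second (adjusted p = 0.00877 and 0.00184). Because peaks here were present or absent, the normal noise that limma assumes did not hold, and the fitted difference from lists with no peak is no estimate of a fold.

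**Figure D2:**
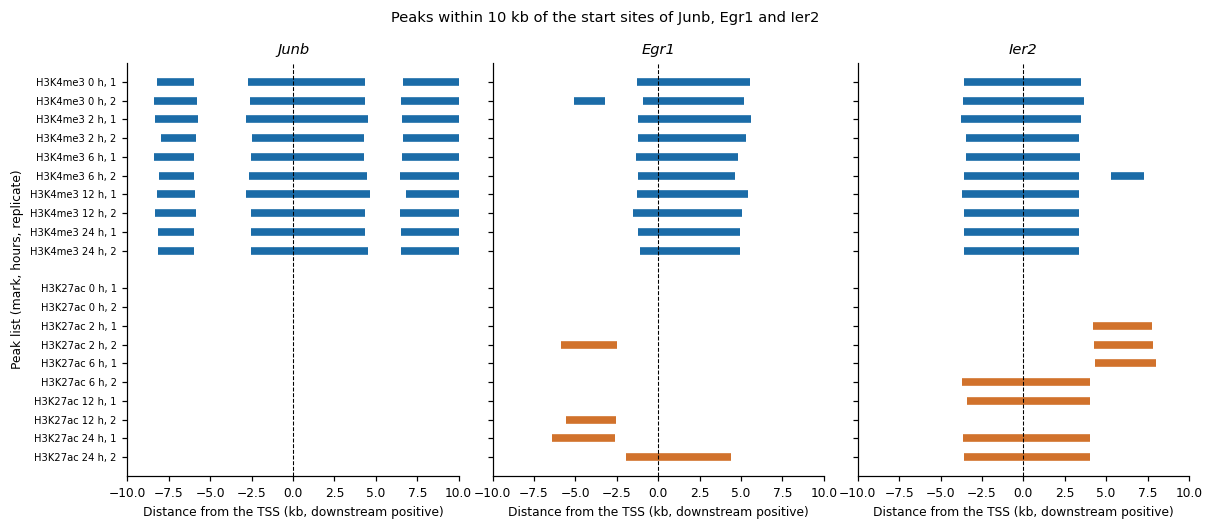
Peaks within 10 kb of the TSS of *Junb*, *Egr1* and *Ier2*, 1 row per list with the mark, the hours of β-estradiol and the replicate, against the distance from the TSS in kb. Long H3K4me3 peaks (blue) span each TSS in all 10 lists. H3K27ac (orange) is missing at the *Junb* TSS and lies on 1 list at the *Egr1* TSS. At *Ier2* it was called downstream of the gene in both lists at 2 h and over the TSS in both at 24 h.

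*Egr1* (chr18:34859823-34864984) had its H3K27ac mainly downstream. Regions from 17.4 to 23.1 kb and from 23.2 to 32.1 kb beyond its TSS carried H3K27ac in all 10 lists, at 4418 to 5613 bp and 5861 to 8512 bp, the latter reaching beyond the window. A region upstream, from -6.41 to -2.50 kb, had a peak of 3388 bp in the second list at 2 h, 3019 bp in the second list at 12 h and 3828 bp in the first list at 24 h. The TSS itself had H3K27ac in 1 list, the second at 24 h, with 6360 bp and a score of 71.2. In total the window held 5661 and 6442 bp of H3K27ac at 0 h, 6182 and 9994 bp after 2 h, 5571 and 7493 bp after 6 h, 6593 and 9168 bp after 12 h, and 9968 and 11700 bp after 24 h. Both lists at 24 h were above both at 0 h, but through different peaks, and the difference did not pass (log2 difference 0.82, SE 0.27, adjusted p = 0.140). The H3K4me3 of the window was 8354 and 8019 bp at 0 h, 7720 and 7108 bp after 2 h and 6207 and 6081 bp after 24 h, lower than at 0 h in both lists at either time, which did not pass (log2 difference at 24 h -0.40, SE 0.08, adjusted p = 0.0714). The TSS peak itself ranged from 6155 to 6778 bp at 0 h and from 6081 to 6207 bp at 24 h. Smaller H3K4me3 peaks lay upstream (1864 bp in the second list at 0 h) and 19.6 to 21.4 kb downstream (1576 bp in the first), and neither was in a list at 24 h.

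The second question was whether the 2 h step changed the peak-covered length around the members. Neither mark passed the limma window test at 2 h for any of the 10 members, and only 4 of 13592 H3K4me3 windows (0.0294%) and 39 of 13851 H3K27ac windows (0.282%) passed in the whole annotation. At an unadjusted p under 0.05 there was 1 member for H3K4me3, *Atf3*, and 1 for H3K27ac, *Ier2*, against 5.42% and 8.81% of all windows. The median log2 difference over the members was -0.040 for H3K4me3 and 0.0074 for H3K27ac, and over all windows -0.041 and -0.0048. Scaled by the total length of each list, the members' medians turned to 0.022 and -0.0071 and those of all windows were 0.020 and -0.019.

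For H3K4me3 at 2 h, both lists were below both lists at 0 h for *Jun*, *Egr1* and *Atf3* and above them for no member, against 24.8% below and 6.39% above over all windows. At *Jun* the values were 3392 and 3574 bp at 0 h and 3388 and 3342 bp after 2 h, so the groups barely missed overlapping, and the log2 difference of -0.047 became 0.015 when lengths were scaled by the total of each list. At *Atf3* they were 4831 and 5078 bp at 0 h and 4298 and 3789 bp after 2 h (log2 difference -0.28, SE 0.08, adjusted p = 0.671). The internal *Atf3* promoter overlapped, with 1896 and 2067 bp at 0 h and 2132 and 1904 bp after 2 h. An intronic region with 747 and 616 bp at 0 h had no peak at 2 h. The *D730003I15Rik* start had 2188 and 2395 bp and then 2166 and 1885 bp. For H3K27ac at 2 h, *Ier2* and *Jund* were above 0 h and *Jun* and *Ier3* below, against 18.5% and 20.3% of all windows. *Jund* had 6776 and 6912 bp at 0 h and 7756 and 7450 bp after 2 h (adjusted p = 0.580), and *Jun* 3227 and 3253 bp and then 2706 and 2890 bp (adjusted p = 0.721). The *Jund* TSS region overlapped between these times, with 7102 and 6861 bp after 2 h. The rest of the window at 2 h was a short downstream peak at *Gm3336* (654 and 589 bp). *Ier3* had 16453 and 7980 bp at 0 h and 7726 and 7901 bp after 2 h, and the first list at 0 h stood apart.

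**Figure D3:**
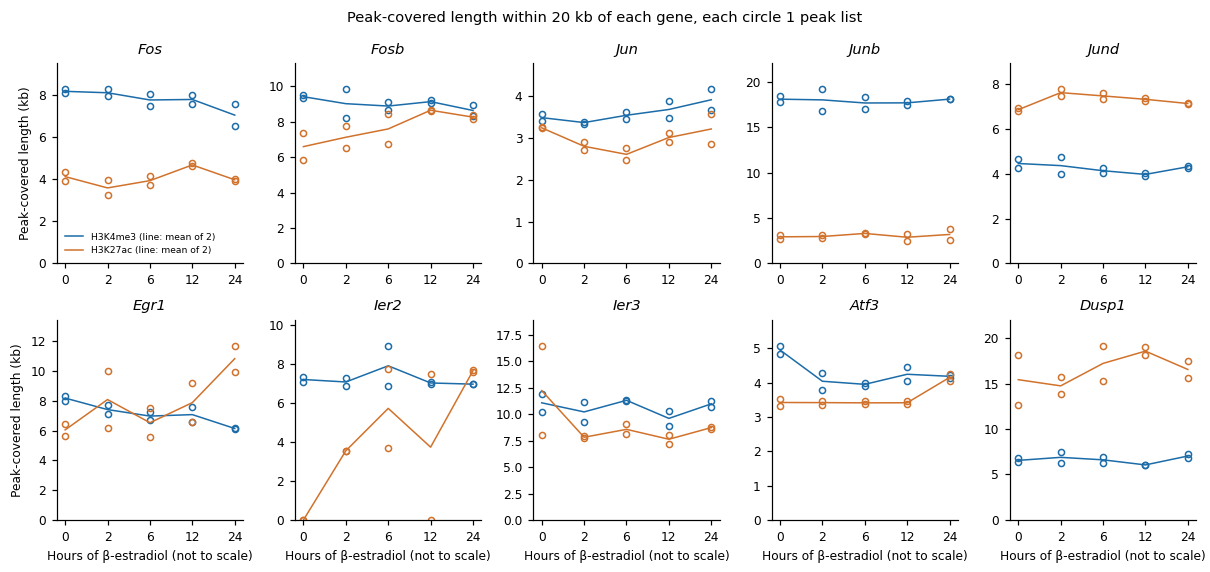
Peak-covered length in kb within 20 kb of each of the 10 genes, by hours of β-estradiol (not to scale), with 1 circle per list and lines through the mean of 2, for H3K4me3 (blue) and H3K27ac (orange). Most lines are flat, and the *Ier2* H3K27ac lists run from 0 in both lists at 0 h to 7688 and 7592 bp after 24 h.

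Later times gave the same count. None of the 10 members passed at 6, 12 or 24 h against 0 h for H3K4me3, against 0.0441%, 0.177% and 1.12% of all windows, or for H3K27ac, against 0.397%, 0.758% and 5.29%. None passed at 6, 12 or 24 h against 2 h either, where the shares of all windows were 0.0%, 0.0883% and 0.773% for H3K4me3 and 0.209%, 0.383% and 2.82% for H3K27ac. At an unadjusted p under 0.05 at 24 h there were 3 members for H3K4me3 (*Fos*, *Egr1* and *Atf3*, all shorter) and 3 for H3K27ac (*Egr1*, *Ier2* and *Atf3*, all longer), against 11.6% and 20.9% of all windows. For H3K27ac the lists at 24 h lay above those at 0 h for 5 members (*Fosb*, *Jund*, *Egr1*, *Ier2* and *Atf3*) and below for none, against 31.9% and 18.1% of windows. For H3K4me3 they lay below for 5 (*Fos*, *Fosb*, *Egr1*, *Ier2* and *Atf3*) and above for 2 (*Jun* and *Dusp1*), against 28.3% and 15.2%. The median log2 difference at 24 h over the members was 0.11 for H3K27ac, against 0.049 over all windows, and -0.046 for H3K4me3, against -0.026. Scaled by the total length of each list, the H3K4me3 medians turned to 0.017 and 0.035, and the sign turned for *Jund*, *Ier2* and *Ier3*.

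The FOS family genes carried both marks at their promoters and at distal regions. *Fos* (chr12:85473890-85477273) had 3 regions with both marks in all 10 lists, at its TSS, upstream from -19.3 to -17.5 kb and downstream from 11.4 to 13.0 kb (H3K27ac). H3K27ac at the *Fos* TSS was narrow, from 1543 to 1861 bp over the lists, and at 0 h and 2 h measured 1764 and 1647 bp and 1674 and 1561 bp. The upstream region had 941 and 902 bp of H3K27ac at 0 h, 1045 and 624 bp after 2 h, 778 and 1531 bp after 6 h, 1623 and 1511 bp after 12 h, and 1303 and 1457 bp after 24 h. Its lists at 12 h and 24 h lay above both lists at 0 h, and those at 2 h and 6 h straddled them. The downstream region had 1626 and 1388 bp at 0 h, 1232 and 1056 bp after 2 h and 1097 and 1001 bp after 24 h, below 0 h in both lists at either time (adjusted p = 0.233 at 24 h). H3K4me3 in the *Fos* window was 8292 and 8097 bp at 0 h, 8296 and 7957 bp after 2 h and 6532 and 7593 bp after 24 h (adjusted p = 0.329 at 24 h).

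*Fosb*, which encodes a FOS relative (chr7:19302696-19310051), had the only 1 of 28 tested H3K27ac regions of the members that passed at 24 h against 0 h. It lies upstream of the gene at chr7:19324865-19328594, in an intron of the long noncoding RNA gene *D830036C21Rik*, and carried both marks in all 10 lists. H3K27ac there covered 1667 and 1764 bp at 0 h, 2059 and 2911 bp after 2 h, 2773 and 3429 bp after 6 h, 2937 and 3370 bp after 12 h, and 3028 and 3256 bp after 24 h. Every later list was above both lists at 0 h. The log2 difference at 24 h was 0.80 (SE 0.17, adjusted p = 0.0441). Over all regions 3.3% passed in this direction and 3.02% as shorter, so 1 of 28 was not above the general share. At 6 h and 12 h the adjusted p was 0.118 and 0.0807. Peak scores at this region were 96.2 and 87.9 in the lists of 0 h, 158 and 159 after 2 h, and 273 in both lists at 24 h. The call at 24 h was lost in 8 of 10 fits that left out 1 list, with adjusted p from 0.0152 to 0.171 and log2 differences from 0.75 to 0.85. H3K4me3 of the same region was 1516 and 1626 bp at 0 h and 1497 and 1608 bp after 24 h, overlapping.

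The added H3K27ac lay on the side toward *Fosb*. A stretch of 960 bp, from 15.3 to 16.2 kb upstream of the TSS, was covered in all 4 lists at 12 h and 24 h and in neither list at 0 h. The 300 bases at its center (chr7:19325669-19325968, plus strand, GRCm38.p6) are shown because GATA1 is the factor activated here, with matches to the GATA motif, in either orientation, in capitals.
Fosb upstream stretch: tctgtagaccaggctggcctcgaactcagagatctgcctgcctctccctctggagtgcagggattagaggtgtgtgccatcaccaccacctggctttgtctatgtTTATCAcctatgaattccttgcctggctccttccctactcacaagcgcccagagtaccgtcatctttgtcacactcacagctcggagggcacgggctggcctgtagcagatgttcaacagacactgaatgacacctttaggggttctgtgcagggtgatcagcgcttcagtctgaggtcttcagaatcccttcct
There was 1 match in these bases and there were 4 in the whole stretch. Of the 300-base centers of the 1503 H3K27ac regions on chromosome 7, 39.7% held at least 1. The AP-1 motif TGANTCA had no match in these 300 bases or in the whole stretch, and 8.25% of those centers held it. No share was computed for stretches of 960 bp, so the 4 GATA matches there have no comparison. GATA1 binding was not measured in these lists.

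*Jun* and *Jund*, which encode partners of FOS in AP-1, carried both marks at their TSS in all 10 lists. *Jun* (chr4:95049034-95052222) had 1 region per mark, over its TSS and the antisense gene *Junos*. Its H3K4me3 was 3392 and 3574 bp at 0 h, 3450 and 3629 bp after 6 h, 3881 and 3475 bp after 12 h and 4162 and 3658 bp after 24 h, and its H3K27ac was 3227 and 3253 bp at 0 h, 2464 and 2748 bp after 6 h, 2894 and 3122 bp after 12 h and 2861 and 3563 bp after 24 h. The H3K27ac lists at 2, 6 and 12 h thus lay below those at 0 h, while those at 24 h enclosed them (log2 difference at 24 h -0.02, SE 0.12, adjusted p = 0.960). *Jund* (chr8:70698949-70700616), the JUN member with the most constant expression in most tissues, had H3K4me3 TSS scores in the 88.5 percentile of their lists (median) and a long H3K27ac peak over its TSS, 6507 to 7371 bp, in the 98.5 percentile of genes with H3K27ac at the TSS in all lists. A short H3K27ac region 19.2 to 20.1 kb downstream, at the start of *Gm3336*, was absent in both lists at 0 h and present in both at 2 h (654 and 589 bp) and at 6 h (640 and 629 bp), when 2.31% of all regions were gained. It was present in 1 list at 12 h (734 bp) and in neither at 24 h. Its scores were 52.1 to 89.3, and with equal numbers of top-scoring peaks per list the peak of the second list at 2 h dropped out. H3K4me3 was there in all 10 lists, and both CTCF lists had a peak that overlapped it.

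*Atf3* (chr1:191170296-191218039) carried its marks at the internal promoter. H3K27ac there (chr1:191182197-191184250) was 1130 and 883 bp at 0 h, 1388 and 1082 bp after 2 h, 1210 and 1141 bp after 6 h, 1022 and 1118 bp after 12 h, and 1857 and 1924 bp after 24 h. The lists at 24 h stood above all 8 earlier ones, and the log2 difference of 0.80 (SE 0.18) missed the threshold, with adjusted p = 0.0508. The added length at 24 h was on the upstream side. The peak ended from 17 bp short of the RefSeq start to 356 bp beyond it in the 8 lists up to 12 h, and 917 and 787 bp beyond it at 24 h, while its downstream edge lay 871 to 1031 bp from the start in those 8 lists and 939 and 1136 bp after 24 h. The printed *Atf3* promoter was therefore covered whole by H3K27ac in both lists at 24 h and in only 3 of the 8 earlier lists.

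H3K4me3 at this promoter overlapped between these times, with 1896 and 2067 bp at 0 h and 1895 and 2131 bp after 24 h. An intronic H3K4me3 region (chr1:191197854-191198620) with 747 and 616 bp at 0 h had no peak in either list at 2, 6 or 24 h and 598 bp in 1 list at 12 h. It thus counted as lost at 2, 6 and 24 h, as did 1.48%, 2.02% and 3.88% of all H3K4me3 regions. Its scores were 52.0 to 79.9, in the 0.413 to 9.51 percentiles of their lists, and it was not called lost with equal numbers of peaks per list. The start of the neighboring long noncoding RNA gene *D730003I15Rik* had both marks in all lists.

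**Figure D4:**
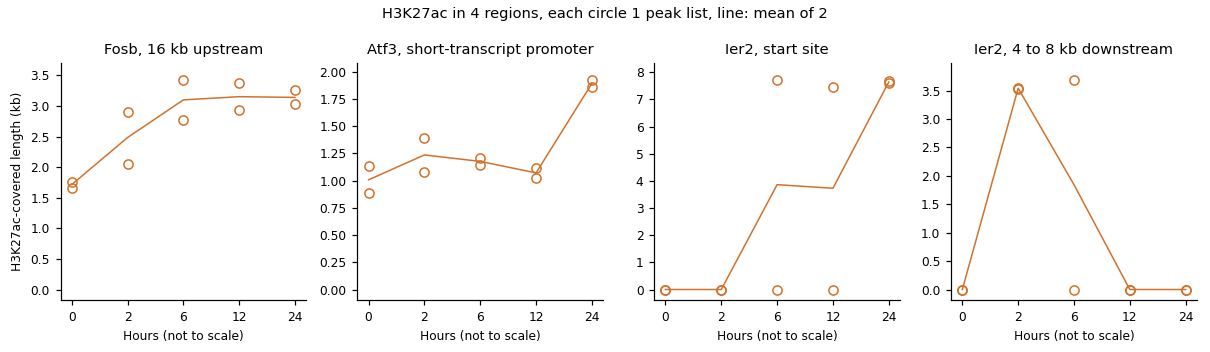
H3K27ac-covered length in kb of 4 regions by hours of β-estradiol (not to scale), with 1 circle per list and lines through the mean of 2. The *Fosb* upstream region rises from 1667 and 1764 bp at 0 h to 3028 and 3256 bp after 24 h, the *Atf3* promoter is longer at 24 h, and the *Ier2* regions alternate between presence and absence.

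*Ier3* had a broad H3K27ac peak at its TSS, and *Dusp1* had separate H3K27ac peaks across a long window. *Ier3*, a regulator of apoptosis and stress signaling (chr17:35821684-35822923), shares its domain with the start of *Flot1*, and its H3K27ac TSS peak of 7184 to 8217 bp was in the 99.9 percentile. Its window held 16453 and 7980 bp at 0 h, 7726 and 7901 bp after 2 h and 8621 and 8828 bp after 24 h. The high first list at 0 h came from a single peak of 8292 bp over *Tubb5* and *Mdc1*, with a score of 52.1, and without the second list at 0 h the *Ier3* window passed as shorter at 2 h (adjusted p = 0.0279) and at 24 h (adjusted p = 0.0225). *Dusp1* (chr17:26505590-26562128, where 1 long transcript reaches to *Ergic1*) had H3K27ac over and upstream of its TSS in all lists. The total was 12659 to 19150 bp over separate peaks in a window of 96.5 kb, the longest of the members. The *Dusp1* H3K27ac TSS peak had a median length of 3146.5 bp, in the 62.4 percentile. Its H3K4me3 TSS peak was 3047 and 3582 bp at 0 h, 2897 and 3011 bp after 2 h and 3162 and 3321 bp after 24 h, so that both lists at 2 h were below those at 0 h and those at 24 h lay between them. An H3K4me3 region at the pseudogene *Gm8225*, upstream of the *Dusp1* TSS, was absent at 0 h and present in both lists at 24 h (392 and 842 bp), as for 0.456% of all regions, and in 1 list each at 2 h and 6 h.

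In all, 33 H3K4me3 and 31 H3K27ac regions touched the member windows. Of these, 26 (78.8%) and 19 (61.3%) were present in all 10 lists, against 70.8% and 54.4% of all regions. At 2 h against 0 h, 1 H3K4me3 region was lost (*Atf3*, 1.48% of all), none was gained (0.4% of all), and 2 H3K27ac regions were gained (*Jund* and *Ier2*, 1.56% of all). At 24 h against 0 h, 1 H3K4me3 region was gained (*Dusp1*, 0.456% of all) and 1 lost (*Atf3*, 3.88%), and 1 H3K27ac region was gained (*Ier2*, 3.43%). At 6 h no H3K4me3 region was gained (0.48% of all), and at 12 h no H3K27ac region was gained (2.69%). No H3K27ac region was lost against 0 h by this rule at 2, 6, 12 or 24 h, against 1.58%, 1.64%, 2.22% and 4.18% of all. Between 2 h and 24 h, H3K27ac regions were gained at *Ier2* and *Ier3* (2.54% of all) and lost at *Jund* and *Ier2* (3.17%), and no H3K4me3 region was gained or lost (0.585% and 2.15%). The *Ier2* gain and loss are of neighboring regions and would not be called if these were merged.

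Other lists of related genes were measured in the same way. Of 24 other immediate early genes, 19 could be tested for H3K4me3 and 18 for H3K27ac. At 2 h none passed, and 2 and 4 had an unadjusted p under 0.05, against 5.42% and 8.81% of all windows. At 24 h the unadjusted p was under 0.05 for 5 and 3 of them, against 11.6% and 20.9%. *Btg2*, an antiproliferative gene, alone passed at 24 h, for H3K27ac, where 5.29% of all windows passed. Its H3K27ac was 5582 and 5152 bp at 0 h, 7833 and 8195 bp after 2 h, 8320 and 10098 bp after 6 h, 10084 and 8729 bp after 12 h and 13266 and 10327 bp after 24 h, higher than at 0 h in every later list (log2 difference 1.10, SE 0.15, adjusted p = 0.0125). Of 21 genes of the upstream pathway, including the receptors *Kit* and *Epor*, the MAP kinases and the factors *Srf* and *Creb1*, 20 and 21 could be tested and none passed at 2 h or 24 h. At an unadjusted p under 0.05 there were 0 for H3K4me3 and 2 for H3K27ac at 2 h, and 1 and 3 at 24 h, to be read against the same shares of all windows.

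CTCF, with 1 list per time, lay within 1 kb of the TSS in both lists at *Fosb*, *Jun*, *Egr1* and *Dusp1*. Of genes with H3K4me3 at the TSS in all lists, 26.1% had CTCF there in both. Peak-covered length of CTCF was greater at 24 h in 9 of 10 member windows, all but *Fos* (3793 and 2657 bp), as in 84.0% of all windows with CTCF, and the 24 h list held more peaks. There was no replicate, so this difference was not tested.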

How the data were processed

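The 22 ChIP-seq lists were grouped by the antibody and hours in the sample titles. Reads were mapped by the authors with Bowtie2 (mm10, unique hits), who called histone peaks per library with MACS without its model step. The version, control and threshold, and the CTCF calling, are not given in the sources used here. The sample descriptions name a human build, yet the peaks lie on mm10 genes. The deposited columns used were peak positions and the authors' score per peak (lowest about 50, apparently -10 times log10 of p). The lists hold no counts, so depth and its precision are unknown.

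Windows were GENCODE M21 gene bodies with 20 kb on each side, and regions were the union of 10 lists merged where they touch. A region was gained or lost when it had a peak in both lists of one time and in neither of the other. Windows and regions seen in 2 or more lists entered limma 3.58.1 (R 4.3.3), which was fitted with trend to log2(covered bp + 200) with a mean per time point, over all windows or regions, at an adjusted p of 0.05. All 10 members passed this filter for both marks. The step was tested on simulated data. All 10 members are named, as are other listed genes past the threshold. The members, lists and tests were chosen with earlier results of these data known. The paper describes 2 independent experiments for ChIP-seq in these cells. Nothing in the labels says that replicates came from separate cultures, so p-values measure the spread between these lists. Motifs were searched on both strands of RefSeq sequences, with 8 of 10 members matched in the promoter table (not *Egr1* and *Ier2*). Same-numbered replicates did not deviate together (correlations from -0.135 to 0.0617, none of 10 pairs per mark over 0.1), so no block was used. Python 3.11.15 with pandas 2.3.3 was used.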

Additional observations from a re-analysis of the deposited data

Results flagged for a closer look

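At 4 members both H3K4me3 lists at 24 h were below both lists at 0 h while both H3K27ac lists were above. The log2 differences of the windows were -0.12 and 0.32 at *Fosb*, -0.40 and 0.82 at *Egr1*, -0.047 and 5.29 at *Ier2*, and -0.23 and 0.27 at *Atf3*, in the order H3K4me3 and H3K27ac. The value of 5.29 depends on the 200 bp constant, because no list at 0 h had H3K27ac there, and the sign of the *Ier2* H3K4me3 difference turned (0.017) when lengths were scaled by the total of each list. Of 13165 windows with both marks, 6.62% showed this pattern. These are values of whole windows, and the marks need not have differed at the same place. H3K4me3 of the region over the TSS had log2 differences of -0.052 at *Fosb*, -0.070 at *Egr1* and -0.047 at *Ier2*. At the internal *Atf3* promoter it was 0.020. At the *Fosb* upstream region H3K4me3 had -0.015 and H3K27ac 0.80. The difference between the marks was not tested.

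The H3K4me3 of *Jun* was below 0 h in both lists at 2 h (log2 difference -0.047) and above it in both at 24 h (0.16), as 2.55% of all H3K4me3 windows lay on opposite sides at these times. The difference at 2 h became 0.015 under the same scaling, and the direct comparison of 24 h with 2 h did not pass.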

How the results depend on the processing

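No member passed the window test for H3K4me3 under any alternative. For H3K27ac 1 member passed at 24 h instead of 0 with only peaks at or above the median score (*Fosb*, log2 difference 0.98, adjusted p = 0.0104), with a flank of 5 kb (*Atf3*, 0.80, adjusted p = 0.0393), with a fit to the 4 lists compared (*Ier2*, adjusted p = 0.00590) and with the replicate block (*Egr1*, 0.82, adjusted p = 0.0372). At 2 h 1 passed in the fit to 4 lists (*Ier2*, adjusted p = 0.0338). The replicate block moved no other count by more than 1.5 times. For H3K27ac regions past the threshold, the count at 24 h went from 1 to 2 with equal numbers of top-scoring peaks per list, a constant of 1000 bp, a peak in at least 5 lists or the fit to 4 lists, and that fit gave 1 at 2 h. It also gave 1 H3K4me3 region at 24 h, from 0. Presence and absence depended on score. With only peaks at or above the median score, H3K4me3 regions lost at 2 h, gained at 24 h and lost at 24 h went from 1 to 0 each, H3K27ac regions gained at 2 h from 2 to 0 and at 24 h from 1 to 2. Equal numbers of peaks gave 0 lost H3K4me3 regions at 2 h and at 24 h, and 1 and 2 gained H3K27ac regions. A flank of 50 kb gave 2 lost, 2 gained and 3 lost H3K4me3 regions in the first order, and a flank of 5 kb gave 1 gained H3K27ac region at 2 h. Fits without 1 list, in which the lone list of a time is assumed to vary like the others, gave 0 to 1 H3K27ac members at 2 h and at 24 h (*Ier2* without a list at 12 h, *Ier3* without the second at 0 h), 0 to 2 H3K27ac regions past the threshold at both times, and 0 to 1 H3K4me3 regions at 24 h. They gave 2 to 3 and 1 to 2 gained and 0 to 3 and 0 to 2 lost H3K27ac regions at 2 h and 24 h, and 0 to 1 and 1 to 2 gained and 1 to 2 and 1 to 2 lost H3K4me3 regions. Of 828 values of single members, 11 passed the threshold under an alternative and none changed sign while called. The cause of these differences was not tested. Lists without counts limit what a missing peak can show.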
